A study of Mus musculus with 16 samples.

Results

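The 10 enzymes and cofactors that write, read or erase DNA methylation and histone marks were followed in the left lungs of Balb/c mice: Dnmt1, Uhrf1, Dnmt3a, Dnmt3b, Tet1, Tet2, Tet3, Ezh2, Hdac2 and Sirt1. Every probe set whose annotation names exactly 1 gene, and that gene a member or a synonym of a member, was taken. This gave 24 of the 45037 non-control probe sets and 10 of the 18193 genes measured.

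The mice had been exposed in utero either to filtered air or to sidestream cigarette smoke, which stood in for second-hand smoke (SHS), at a particle load of 10 mg/m3 for 5 h a day on 7 days a week. All mice, the air controls included, were injected with the allergen ovalbumin (OVA) at 19 and 21 weeks of age and breathed OVA aerosol every other day in weeks 22 and 23. Lungs were taken at 23 weeks, so each comparison is between allergic lungs that differ in their exposure before birth, and lung without OVA was not analysed here. The 4 groups of 4 mice were females after air, females after SHS, males after air and males after SHS, each lung on its own Affymetrix Mouse Genome 430 2.0 array. The question was what SHS before birth does to these transcripts in each sex, and females were not compared with males in level. The labels do not tie the mice to litters, so a shared litter and the exposure cannot be told apart.

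Values are log2 signals as deposited. In the lists below, 4 values in a row are mice 1 to 4 of a group. A difference is SHS minus air with its standard error from limma, fitted over all 16 arrays. A gene was called, and is said to have risen or fallen, at a Benjamini-Hochberg adjusted p under 0.05 over the 45037 probe sets. Where a gene has several probe sets, the one with the highest mean leads. Arrays carry no read depth, and their number limits the precision.

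DNA methylation is copied at the replication fork, where UHRF1 binds hemimethylated DNA and recruits the maintenance methyltransferase DNMT1. DNMT3A and DNMT3B place new methyl groups and the TET dioxygenases oxidise methylated cytosine towards its removal. EZH2 trimethylates lysine 27 of histone H3 as the catalytic subunit of Polycomb repressive complex 2, while HDAC2 and the NAD-dependent SIRT1 remove acetyl groups from histones. Reduced HDAC2 activity is known from the lungs of smokers, in whom it is linked to a poor glucocorticoid response.

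Of the 10 genes, the 2 that were called act in maintenance methylation. Uhrf1 rose after SHS in both sexes and Dnmt1 rose in males. In females 1 of 10 members was called higher, where 3.29% of the 18193 genes were, and 0 lower, where 0.676% were, while 5 members had an unadjusted limma p under 0.05. In males 2 of 10 were called higher against 4.17% of genes, and 0 lower against 2.47%, with 4 members at an unadjusted limma p under 0.05. The share of all genes at that unadjusted level was not counted for SHS minus air in either sex. The counts at that level, here and for the lists below, therefore have no background to be read against. Uhrf1 was 1 of the 353 genes, or 1.94%, called higher in both sexes, and both of its probe sets were among the 1.33% of all probe sets so called. The median difference over the 10 members was 0.13 in females and 0.02 in males, beside 0.00 and 0.01 over all genes. Counted by probe set, 2 of 24 were called higher in females (2.36% of all probe sets) and 5 of 24 in males (3.07%). None of the 24 was called lower in either sex, against 0.517% of all probe sets in females and 2.11% in males.

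Without any test, the groups can also be read for overlap. All 4 SHS mice lay above all 4 air mice for 2 of 10 members in females (Uhrf1, Dnmt1), beside 7.74% of genes, and for the same 2 in males, beside 10.5%. All SHS mice lay below all air mice for 0 members in females, beside 2.65% of genes, and for 2 in males (Tet2, Sirt1), beside 8.53%. By probe set, 3 of 24 lay wholly above and 1 wholly below in females, against 5.61% and 2.64% of all probe sets. In males 5 of 24 lay wholly above and 6 wholly below, against 7.87% and 7.51%.

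**Figure D1:**
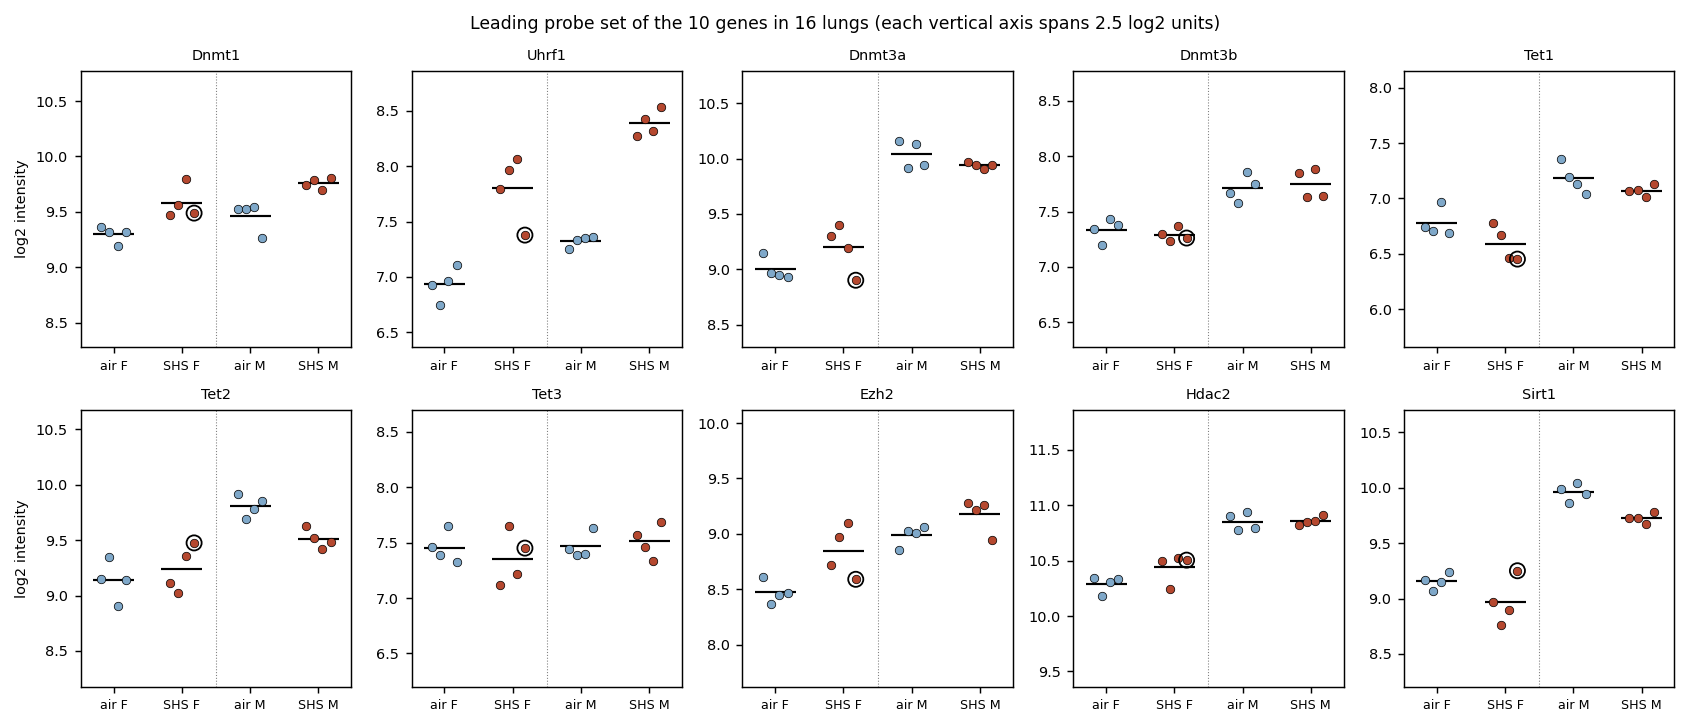
Log2 signal of the leading probe set of each of the 10 genes in every mouse, with air in blue and SHS in red, females (F) left and males (M) right of the dotted line, a bar at each group mean, and a ring on SHS female 4. Uhrf1 shows the separation in both sexes (females 6.75 to 7.11 against 7.38 to 8.07, males 7.25 to 7.36 against 8.27 to 8.53), while most other panels show groups that overlap or lie close.

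The fourth SHS mice of both sexes have to be known before the values are read. SHS female 4 stood apart from SHS females 1 to 3. Its median over proliferation markers lay 0.50 above the mean of the air females, against 0.87, 1.17 and 1.17 in SHS females 1 to 3. Without it, calls in females went from 1294 to 3604 probe sets, and the called members from 1 to 5: Uhrf1, Dnmt1, Dnmt3a and Ezh2 higher (4 of 10, against 7.66% of genes) and Sirt1 lower (1 of 10, against 3.45%). SHS male 4 stood apart from SHS males 1 to 3 as well, with a median over the markers of 0.55 against 0.91 to 0.96. Without it, 2105 probe sets were called in males in place of 2332, with Uhrf1 as the only member, and Ezh2 joined Uhrf1 in females. Both mice were lowest of their group in the mean log2 level of eosinophil markers, with 6.72 against 7.86 to 8.31 in the other SHS females and 7.10 against 7.91 to 8.28 in the other SHS males. That level was 7.47 to 7.70 in air females and 7.63 to 7.94 in air males. The SHS mice numbered 4 were lowest in general leukocyte markers too, with 11.90 against 12.29 to 12.47 and 11.81 against 12.15 to 12.29. In neutrophil markers they were instead highest of their group, with 9.65 against 8.85 to 9.27 in females and 9.47 against 9.29 to 9.44 in males. Endothelial markers were highest in them as well, with 12.26 against 11.80 to 11.90 and 11.98 against 11.69 to 11.73. Calls of members that change when either mouse is left out are given with both values.

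Uhrf1 (chr17:56303337-56323486, GRCm38.p6) encodes the reader that brings DNMT1 to newly replicated DNA. Its leading probe set 1415810_at read 6.93, 6.75, 6.97 and 7.11 in air females and 7.80, 7.96, 8.07 and 7.38 in SHS females. In males it read 7.25, 7.34, 7.35 and 7.36 after air and 8.27, 8.43, 8.32 and 8.53 after SHS. Every SHS mouse was above every air mouse of its sex, and SHS female 4 was the closest to the air range. The difference was 0.86 ± 0.12 in females (1.82-fold, 95% confidence interval 0.62 to 1.11, limma adjusted p = 0.000585). In males it was 1.06 ± 0.12 (2.09-fold, interval 0.82 to 1.31, limma adjusted p = 0.000131). Leaving out any 1 of the 16 arrays kept the call in both sexes.

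The other Uhrf1 probe set, 1415811_at, separated the groups too. In females it read 6.42, 6.19, 6.19 and 6.15 after air against 7.23, 7.48, 7.29 and 6.57 after SHS, a difference of 0.90 ± 0.14 (limma adjusted p = 0.00184). In males it read 5.68, 5.87, 5.78 and 5.56 against 6.57, 6.31, 6.33 and 6.26, a difference of 0.64 ± 0.14 (limma adjusted p = 0.0134), which was not called without SHS male 1 (0.58, limma adjusted p = 0.0527). The female minus male difference in the SHS effect was -0.20 (interval -0.55 to 0.15, limma adjusted p = 0.786) at the leading probe set and 0.26 (limma adjusted p = 0.768) at the other, so the sexes were not shown to differ.

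Dnmt1 (chr9:20907206-20959888), the maintenance methyltransferase itself, moved by less. The leading probe set 1422946_a_at read 9.36, 9.32, 9.19 and 9.32 in air females and 9.47, 9.56, 9.80 and 9.49 in SHS females. In males it read 9.53, 9.52, 9.55 and 9.26 after air and 9.74, 9.79, 9.70 and 9.80 after SHS. The groups did not overlap in either sex. The differences were nearly equal, 0.28 ± 0.08 in females (1.22-fold, interval 0.11 to 0.46, limma adjusted p = 0.0746) and 0.29 ± 0.08 in males (1.23-fold, interval 0.12 to 0.47, limma adjusted p = 0.0466), and the threshold fell between them. The sexes' effects differed by -0.01 (interval -0.25 to 0.24, limma adjusted p = 0.991).

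The male call at this probe set is a narrow one. Air male 4, at 9.26, was the lowest of its group by a wide gap, and without it the difference was 0.225 (limma adjusted p = 0.121). Without SHS male 4 the difference was 0.28 (limma adjusted p = 0.0911). Over the 16 fits that each left out 1 array, Dnmt1 was called in 4 in males, and without any 1 mouse of either male group it was not called. In females it was called in 2, without SHS female 4 (0.31, limma adjusted p = 0.0362) and without air male 4 (0.28, limma adjusted p = 0.0499).

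The other Dnmt1 probe sets add to this. Probe set 1435122_x_at read 9.62, 9.61, 9.63 and 9.46 in air males and 9.86, 9.80, 9.87 and 9.92 in SHS males, with no overlap and a difference of 0.28 ± 0.08 (limma adjusted p = 0.0423), which was not called without air male 4 (0.24, limma adjusted p = 0.105). It was called in 5 of the 16 fits that left out 1 array, and not without SHS male 4 (0.26, limma adjusted p = 0.0872). In females its difference was 0.25 ± 0.08 (limma adjusted p = 0.089) and only SHS female 4, at 9.15, overlapped the air range, and without that mouse it was called (0.31, limma adjusted p = 0.0169). The clearest change was in males at 1447877_x_at, which read 7.99, 7.92, 8.04 and 7.88 after air and 8.44, 8.39, 8.47 and 8.54 after SHS. Its difference there was 0.50 ± 0.07 (1.42-fold, interval 0.36 to 0.65, limma adjusted p = 0.000616), and it was called without air male 4 as well (0.48, limma adjusted p = 0.00241). In females this probe set read 7.80, 7.51, 7.60 and 7.66 after air and 7.81, 7.71, 7.81 and 7.78 after SHS, a difference of 0.14 ± 0.07 (interval -0.01 to 0.28, limma adjusted p = 0.354). The effects of the sexes differed there by -0.37 ± 0.10 (unadjusted p = 0.00151, limma adjusted p = 0.394). The suffix _x marks probe sets that may cross-hybridise with other transcripts, so the values of the pair that carry it are less certain than those of the leading probe set.

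Promoter sequence is shown for the 2 called members, because E2F sites are a known feature of genes expressed in S phase. The E2F words TTTCCCGC, TTTCGCGC, TTTGCCGC and TTTGGCGC were searched on both strands in the 250 bases before each RefSeq start (GRCm38.p6). A word was found in 2 of the 15 windows of the members, 1 of Dnmt1 and 1 of Uhrf1, and in 1.86% of 32851 windows of all genes. Counted by gene over any of its windows, 2 of 10 members held one, against 2.16% of 27025 genes, and neither was the first-listed start of its gene. The stretches around the words are given 5′ to 3′ on the gene's strand with the word in capitals, at chr9:20952824-20952853 (minus strand) for Dnmt1, where the word reads on the opposite strand, and at chr17:56304117-56304146 (plus strand) for Uhrf1. Hells, a chromatin remodeler from the list of methylation partners, is set beside them at chr19:38930917-38930946 (plus strand). It was the only list gene looked up singly, so it is a chosen example, and the other list genes that rose were not looked up.
Dnmt1: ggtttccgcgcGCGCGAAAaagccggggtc
Uhrf1: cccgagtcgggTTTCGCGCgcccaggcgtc
Hells: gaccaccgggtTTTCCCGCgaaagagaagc

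The words lay 219 to 212, 185 to 178 and 62 to 55 bases before a start, in that order. The cell cycle element TTTGAA was found in 2 of 10 members against 18.3% of genes over any window, and the CCAAT box in 4 of 10 against 37.5%, on both strands. A match is a description of letters and not of binding, and these arrays do not measure binding or methylation. The 250 bases before the outermost Uhrf1 start (chr17:56303087-56303336, plus strand) hold no E2F word, and their CCAAT box, in capitals, lies 30 to 26 bases before the start.
Uhrf1: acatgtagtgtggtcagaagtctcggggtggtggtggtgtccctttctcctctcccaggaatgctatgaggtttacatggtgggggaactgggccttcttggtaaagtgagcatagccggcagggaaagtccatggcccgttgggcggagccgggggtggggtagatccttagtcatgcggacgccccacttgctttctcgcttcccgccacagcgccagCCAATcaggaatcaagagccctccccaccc

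The de novo methyltransferases did not pass the test. Dnmt3a (chr12:3801559-3914443) read 9.15, 8.97, 8.95 and 8.94 in air females and 9.31, 9.40, 9.20 and 8.90 in SHS females at its leading probe set 1423063_at. SHS females 1 to 3 were above every air female, and SHS female 4 was below them all. The difference was 0.20 ± 0.09 (interval 0.00 to 0.40, limma adjusted p = 0.301), and without SHS female 4 it was 0.30 (limma adjusted p = 0.0287). In males it read 10.16, 9.92, 10.13 and 9.94 after air and 9.97, 9.94, 9.91 and 9.94 after SHS, a difference of -0.10 ± 0.09 (interval -0.30 to 0.10, limma adjusted p = 0.614). The sexes' effects differed by 0.30 (unadjusted p = 0.0371, limma adjusted p = 0.585).

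The same mouse set the values of 3 further Dnmt3a probe sets. Probe set 1423066_at read 7.64, 7.44, 7.49 and 7.06 in air females and 7.88, 8.23, 7.93 and 6.95 in SHS females. Its female difference was 0.34 (limma adjusted p = 0.4) with all mice and 0.61 (limma adjusted p = 0.00382) without SHS female 4. At 1423065_at the pair of values was 0.30 (limma adjusted p = 0.45) and 0.55 (limma adjusted p = 0.00466), and at 1423064_at it was 0.31 (limma adjusted p = 0.355) and 0.52 (limma adjusted p = 0.00573). In males 1423064_at went the other way, with 7.96, 7.95, 8.16 and 8.05 after air and 7.80, 7.78, 7.78 and 7.66 after SHS. Every SHS male was below every air male there, and the difference was -0.27 (limma adjusted p = 0.347). The sexes' effects differed at this probe set by 0.58 (unadjusted p = 0.0174, limma adjusted p = 0.535). The fifth probe set, 1460324_at, differed by 0.03 in females (limma adjusted p = 0.934) and -0.05 in males (limma adjusted p = 0.843).

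Dnmt3b (chr2:153649411-153687730) was not called at either probe set. Its leading probe set 1449052_a_at read 7.34, 7.19, 7.43 and 7.38 in air females and 7.30, 7.23, 7.37 and 7.26 in SHS females, a difference of -0.05 ± 0.08 (interval -0.22 to 0.12, limma adjusted p = 0.839). Males read 7.66, 7.58, 7.86 and 7.75 after air and 7.85, 7.63, 7.88 and 7.64 after SHS, a difference of 0.04 ± 0.08 (interval -0.13 to 0.21, limma adjusted p = 0.854). The groups overlapped in both sexes. Probe set 1418351_a_at differed by -0.01 in females (limma adjusted p = 0.979) and by 0.15 in males (interval -0.01 to 0.32, limma adjusted p = 0.292).

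**Figure D2:**
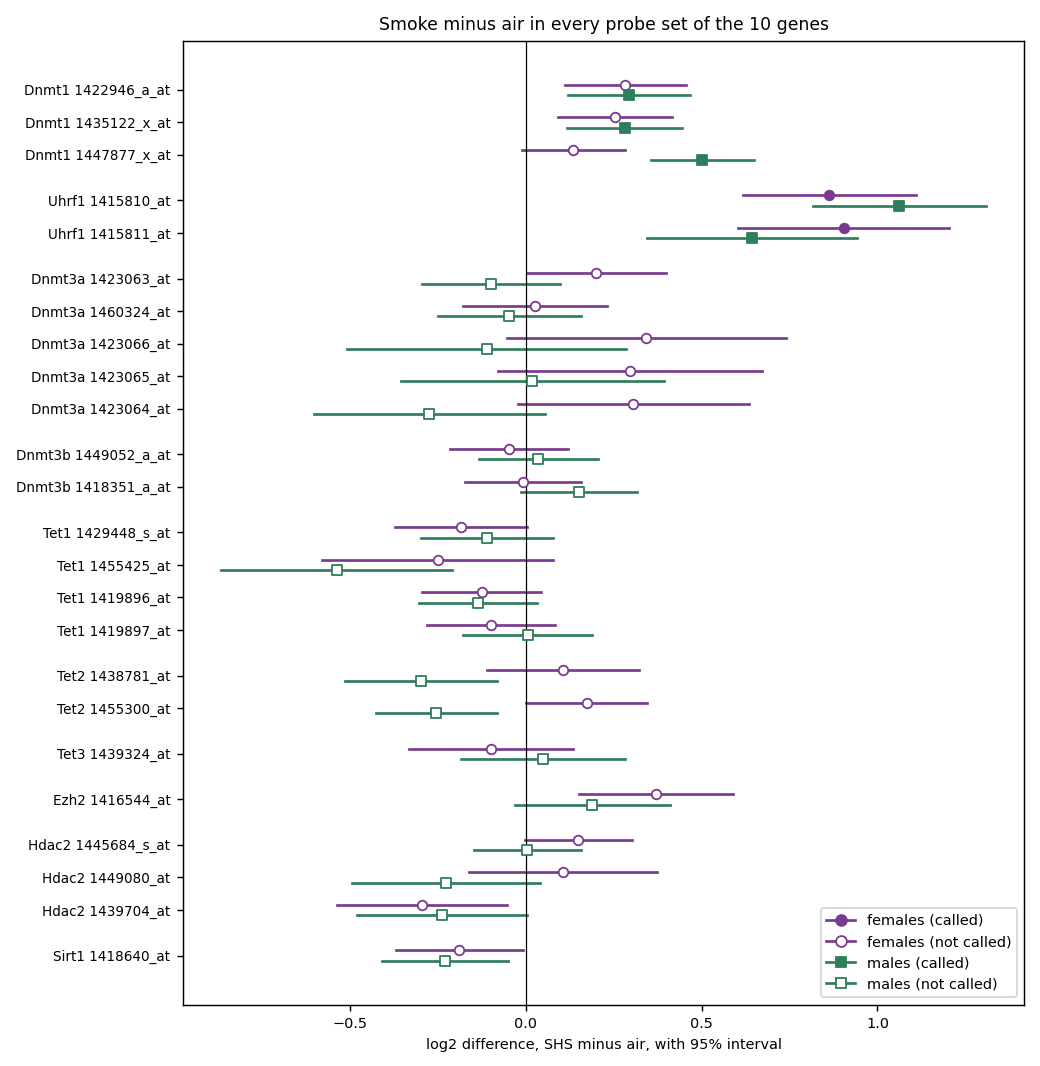
SHS minus air difference on the log2 scale, with its 95% confidence interval, for each of the 24 probe sets in females (circles) and males (squares), filled where the limma adjusted p is under 0.05. The filled points are those of Uhrf1 in both sexes and of Dnmt1 in males, and the probe sets of Hdac2 and Dnmt3a do not lie at 1 value.

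None of the TET genes was called at its leading probe set. Of their 7 probe sets, 5 had a negative difference in males and 5 in females. Tet2 (chr3:133463677-133545136) read 9.92, 9.69, 9.78 and 9.85 in air males and 9.63, 9.52, 9.42 and 9.49 in SHS males at 1438781_at. All SHS males were below all air males, with a difference of -0.30 ± 0.10 (interval -0.51 to -0.08, limma adjusted p = 0.106). Its other probe set, 1455300_at, read 9.95, 9.71, 9.78 and 9.80 against 9.58, 9.58, 9.48 and 9.59, again without overlap, a difference of -0.25 ± 0.08 (limma adjusted p = 0.0809).

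Tet2 in females did not share that direction. The leading probe set read 9.15, 9.35, 8.91 and 9.14 after air and 9.12, 9.03, 9.36 and 9.48 after SHS, overlapping, with a difference of 0.11 ± 0.10 (interval -0.11 to 0.32, limma adjusted p = 0.682). At 1455300_at air females read 8.99, 8.81, 8.83 and 9.02 and SHS females 8.90, 9.05, 9.26 and 9.14, a difference of 0.17 ± 0.08 (limma adjusted p = 0.309). The sexes' effects differed by 0.40 ± 0.15 (unadjusted p = 0.0128, limma adjusted p = 0.513) and by 0.43 ± 0.12 (unadjusted p = 0.00173, limma adjusted p = 0.395). The difference between the sexes was called for 0 of the 45037 probe sets (0%), with 3709 (8.24%) at an unadjusted limma p under 0.05. Of the leading probe sets, 2 of 10 members (Dnmt3a and Tet2) were at that level, beside 8.27% of genes.

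Tet1 (chr10:62804570-62887469) was lower on average after SHS in both sexes, and with all mice no single probe set was called. The leading probe set 1429448_s_at read 6.74, 6.71, 6.97 and 6.68 in air females and 6.78, 6.67, 6.46 and 6.45 in SHS females, a difference of -0.18 ± 0.09 (interval -0.37 to 0.00, limma adjusted p = 0.321). Males read 7.35, 7.19, 7.13 and 7.04 after air and 7.06, 7.08, 7.01 and 7.13 after SHS, a difference of -0.11 ± 0.09 (limma adjusted p = 0.533). The groups overlapped in both sexes at this probe set.

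The widest gap for Tet1 was at 1455425_at in males, with 7.04, 6.80, 6.99 and 6.63 after air and 6.46, 6.45, 6.12 and 6.28 after SHS. The groups did not overlap, and the difference was -0.54 ± 0.16 (interval -0.87 to -0.21, limma adjusted p = 0.0531). It was called without air male 4 (-0.62, limma adjusted p = 0.0441) and, through the shared spread, without SHS female 4 (-0.54, limma adjusted p = 0.0316) or SHS female 2 (-0.54, limma adjusted p = 0.00841). In females it was -0.25 ± 0.16 (limma adjusted p = 0.47). Probe sets 1419896_at and 1419897_at differed by -0.13 (limma adjusted p = 0.483) and -0.10 (limma adjusted p = 0.645) in females, and by -0.13 (limma adjusted p = 0.369) and 0.01 (limma adjusted p = 0.984) in males. When the probe sets of each gene were averaged before the fit, Tet1 was called lower in females (-0.16, limma adjusted p = 0.0454, among 0.984% of genes) and in males (-0.19, limma adjusted p = 0.0154, among 2.97% of genes). In that fit Tet2 was called lower in males as well (-0.28, limma adjusted p = 0.0404). The adjustment there was over 18193 genes, so these calls differ from the main ones in more than the averaging. Ezh2, with 1 probe set and an unchanged difference of 0.37, was called in females there too (limma adjusted p = 0.0425).

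Tet3 (chr6:83362373-83457208) has 1 probe set, 1439324_at. It read 7.46, 7.39, 7.65 and 7.33 in air females and 7.11, 7.65, 7.21 and 7.45 in SHS females, a difference of -0.10 ± 0.11 (interval -0.33 to 0.13, limma adjusted p = 0.729). Males read 7.44, 7.39, 7.40 and 7.64 after air and 7.57, 7.46, 7.34 and 7.69 after SHS, a difference of 0.05 ± 0.11 (interval -0.19 to 0.28, limma adjusted p = 0.86). The groups overlapped in both sexes.

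Ezh2 (chr6:47530274-47595270) was the member next in size to Uhrf1 in females. Its probe set 1416544_at read 8.61, 8.36, 8.45 and 8.47 in air females and 8.72, 8.97, 9.10 and 8.59 in SHS females. Only SHS female 4 fell inside the air range. The difference was 0.37 ± 0.10 (1.29-fold, interval 0.15 to 0.59, limma adjusted p = 0.0656), and without that mouse it was 0.45 and called (limma adjusted p = 0.00989). It was also called without SHS male 4 (0.37, limma adjusted p = 0.0465), which changes only the shared spread. In males it read 8.85, 9.02, 9.003 and 9.06 after air and 9.28, 9.22, 9.26 and 8.94 after SHS, where SHS male 4 was inside the air range. The male difference was 0.19 ± 0.10 (interval -0.03 to 0.41, limma adjusted p = 0.327), and without SHS male 4 it was 0.27 (limma adjusted p = 0.157). The sexes' effects differed by 0.18 (limma adjusted p = 0.78).

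None of the measured partners of EZH2 was called. Of 11 other genes measured of Polycomb repressive complex 2 and its accessory factors, 0 were called in either sex, with 1 in each sex at an unadjusted limma p under 0.05. Their median difference was 0.02 in females and -0.00 in males. The smallest p-values belonged to Phf1 in females (-0.24, limma adjusted p = 0.229) and to Jarid2, a cofactor that recruits the complex, in males (-0.16, limma adjusted p = 0.119). Of 14 genes of Polycomb complex 1 and the demethylases of H3 lysine 27, 1 fell in males, the ubiquitin ligase Rnf2 (-0.21 ± 0.06, limma adjusted p = 0.0363). In females Rnf2 differed by -0.19 (limma adjusted p = 0.0727).

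Hdac2 (chr10:36974297-37001889) did not pass the test at any of its 3 probe sets, and they did not go the same way. The leading probe set 1445684_s_at read 10.35, 10.18, 10.30 and 10.33 in air females and 10.49, 10.24, 10.53 and 10.50 in SHS females, a difference of 0.15 ± 0.07 (interval -0.00 to 0.30, limma adjusted p = 0.321). In males it read 10.90, 10.78, 10.94 and 10.79 after air and 10.82, 10.85, 10.85 and 10.91 after SHS, a difference of 0.00 ± 0.07 (interval -0.15 to 0.16, limma adjusted p = 0.984). The groups overlapped in both sexes.

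At 1439704_at all SHS females lay below all air females, with 7.86, 7.92, 8.03 and 7.97 against 7.71, 7.43, 7.70 and 7.76, a difference of -0.29 ± 0.11 (limma adjusted p = 0.199). Males differed there by -0.24 (limma adjusted p = 0.258) with overlap. At 1449080_at the males separated, with 9.80, 9.69, 9.90 and 9.78 after air and 9.47, 9.62, 9.54 and 9.62 after SHS, a difference of -0.23 (limma adjusted p = 0.334). In females it read 9.30, 8.57, 8.49 and 8.79 against 8.83, 8.78, 8.9997 and 8.97, a difference of 0.11 (limma adjusted p = 0.751). Which transcripts or exons each of these probe sets reads was not analysed here.

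Sirt1 (chr10:63319005-63339035), measured by 1418640_at, was lower after SHS in 7 of the 8 exposed mice than in any air mouse of the same sex. Air males read 9.99, 9.86, 10.04 and 9.94 and SHS males 9.73, 9.73, 9.68 and 9.78, with no overlap and a difference of -0.23 ± 0.09 (interval -0.41 to -0.05, limma adjusted p = 0.133). Air females read 9.17, 9.07, 9.15 and 9.24 and SHS females 8.96, 8.76, 8.89 and 9.25, a difference of -0.19 ± 0.09 (interval -0.37 to -0.01, limma adjusted p = 0.283). The exception was SHS female 4, above every air female. Without it Sirt1 was called in females (-0.28, limma adjusted p = 0.0205). In males the difference of -0.23 then had a limma adjusted p of 0.0444, and Sirt1 was among 3.57% of genes called lower, because the arrays share 1 estimate of the spread. The sexes' effects differed by 0.04 (limma adjusted p = 0.95).

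The other deacetylases and their partners stayed below the threshold. Of 16 other histone deacetylases and sirtuins, 0 were called in either sex, with 2 in each sex at an unadjusted limma p under 0.05, and the median difference was -0.06 in females and -0.01 in males. The smallest p-values were those of Hdac7 in females (-0.26, limma adjusted p = 0.152) and Hdac11 in males (-0.24, limma adjusted p = 0.199). Of 15 subunits of deacetylase complexes, 0 were called and 1 in each sex had an unadjusted limma p under 0.05, with medians of 0.03 and 0.02. These were Sin3b, a scaffold of such complexes, in females (0.23, limma adjusted p = 0.225) and Mta2 of the NuRD complex in males (0.16, limma adjusted p = 0.178). Of 8 genes of the glucocorticoid receptor and its targets, 7 had a negative difference in each sex, and the medians were -0.26 and -0.29. Only 1 was called, Sgk1, a kinase induced by glucocorticoids, which fell in males (-0.31 ± 0.08, limma adjusted p = 0.0281) and differed by 0.00 in females (limma adjusted p = 0.993). The mean log2 level over the list overlapped in both sexes. It was 10.90 to 11.36 in air females, 10.50 to 10.98 in SHS females, 10.63 to 11.24 in air males and 10.65 to 10.72 in SHS males. Tsc22d3, which encodes the glucocorticoid-induced leucine zipper, differed by -0.55 in females (limma adjusted p = 0.0604).

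Genes that work beside the members in methylation moved in a few places. Of 16 readers, writers and partners of DNA methylation, 1 rose in females and 1 in males, the remodeler Hells in both. Hells rose by 1.08 ± 0.15 in females (limma adjusted p = 0.00064) and 0.85 ± 0.15 in males (limma adjusted p = 0.00316), and without HELLS methylation of repeats is known to be lost. The methyl-CpG binding zinc finger gene Zbtb38 fell in males (-0.24 ± 0.07, limma adjusted p = 0.0418), but its most variable probe set had a difference of 0.01 there (limma adjusted p = 0.973). Of 15 measured genes listed under the methyl donor cycle, 4 rose in both sexes and 0 fell. Ahcy, which clears the S-adenosylhomocysteine left by methyl transfer, rose by 0.37 in females (limma adjusted p = 0.0329) and 0.40 in males (limma adjusted p = 0.0139). Its relative Ahcyl2, whose own part in the cycle was not examined here, rose by 0.47 (limma adjusted p = 0.0153) and 0.53 (limma adjusted p = 0.00543). The mitochondrial folate enzyme Mthfd2 rose by 0.48 in females (limma adjusted p = 0.00597) and in males (limma adjusted p = 0.00417), and Shmt2, also of mitochondrial folate metabolism, by 0.52 (limma adjusted p = 0.0102) and 0.40 (limma adjusted p = 0.0349).

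Histone chaperones of replicating chromatin and the sliding clamp rose as well, 3 of 6 in females and 2 of 6 in males. Asf1b, a chaperone of H3 and H4, rose by 0.74 ± 0.12 in females (limma adjusted p = 0.00245) and by 0.68 in males (limma adjusted p = 0.00336), and Pcna rose by 0.39 (limma adjusted p = 0.0141) and 0.38 (limma adjusted p = 0.0118). Nasp rose in females (0.34, limma adjusted p = 0.0346) and differed by 0.24 in males (limma adjusted p = 0.117). Its most variable probe set had a difference of -0.02 in females (limma adjusted p = 0.967). Of 10 histone acetyltransferases, 1 rose, Hat1, which acetylates newly made H4, in females (0.33 ± 0.08, limma adjusted p = 0.0297). Of 9 genes of H3 lysine 9 methylation and heterochromatin, 0 were called, with 1 in each sex at an unadjusted limma p under 0.05, Setdb2 in females (0.20, limma adjusted p = 0.149) and the corepressor Trim28 in males (0.14, limma adjusted p = 0.204). Over the 10 lists together, 9 of 120 measured genes rose and 0 fell in females, and 7 rose and 3 fell in males, beside the shares of all genes given above, and the median difference was 0.01 and -0.01. When each of the 16 arrays was left out in turn, Hells, Asf1b and Mthfd2 in both sexes, Shmt2 in females and Ahcyl2 in males were called every time. The other calls named from these lists were made in 8 to 15 of the 16 fits, and those of Zbtb38 and Rnf2 in males in 8.

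**Figure D3:**
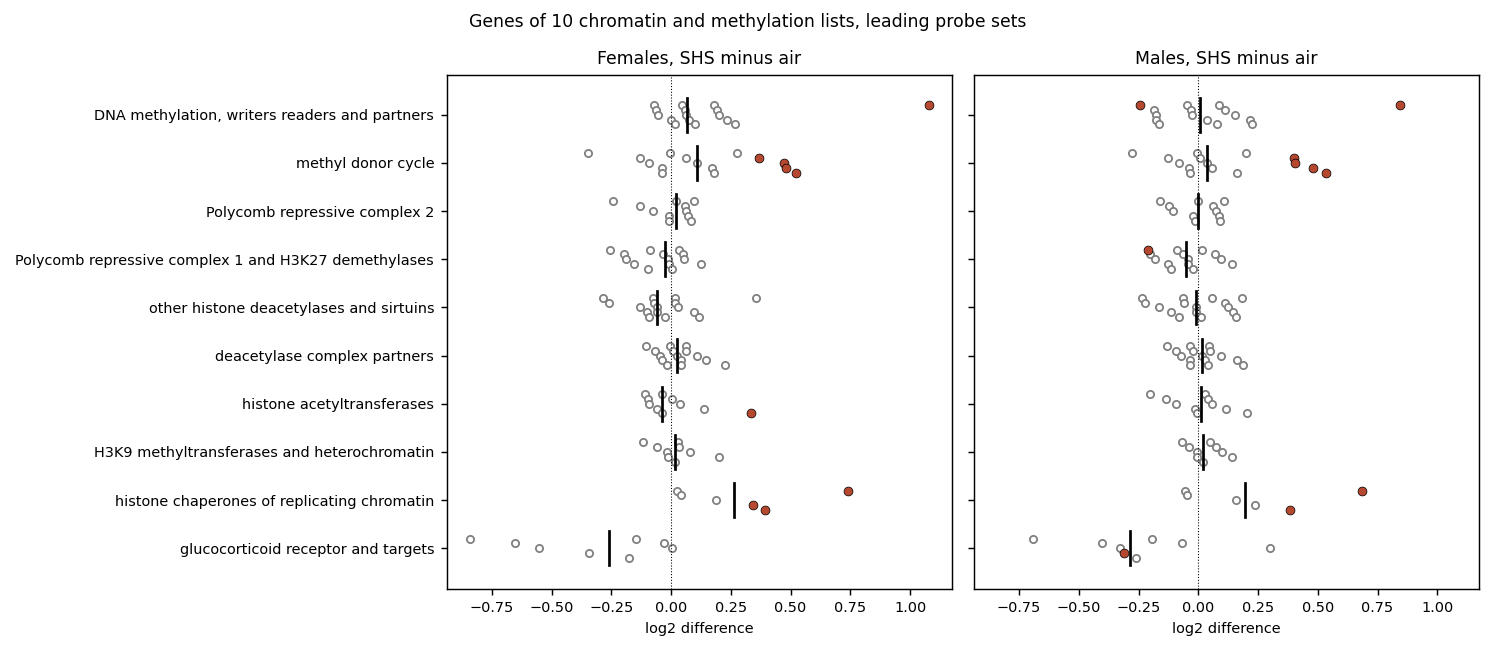
SHS minus air difference on the log2 scale of every measured gene of the 10 lists in females and males, with a vertical line at each list's median and genes called by limma in red. The called genes are mostly in the lists of the methyl donor cycle (4 of 15 in each sex, Ahcyl2 included) and the replication chaperones (3 of 6 and 2 of 6). None is a partner of EZH2.

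Uhrf1 and Dnmt1 are expressed mainly in dividing cells, so proliferation markers were read beside them. Of 19 markers measured, 18 rose in each sex, all except Tyms, with median differences of 0.93 in females and 0.89 in males. Rrm2, a subunit of ribonucleotide reductase, rose by 1.43 and 1.33, and the proliferation antigen Mki67 by 1.30 and 0.98. The mean log2 level over the list was 7.76 to 8.01 in air females, 8.41 to 8.97 in SHS females, 7.77 to 8.03 in air males and 8.49 to 8.81 in SHS males. In whole lung, more dividing cells and more RNA per cell cannot be told apart, and likewise fewer cells and less RNA per cell.

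Mouse by mouse, Uhrf1 lay above the air mean of its sex by 0.86, 1.03, 1.13 and 0.44 in SHS females 1 to 4, and the median proliferation marker by 0.87, 1.17, 1.17 and 0.50. In SHS males the values were 0.95, 1.10, 0.99 and 1.21 for Uhrf1 and 0.91, 0.93, 0.96 and 0.55 for the markers. SHS female 4 was thus lowest of its group in both, while SHS male 4 was lowest in the markers and highest in Uhrf1. Ezh2 lay above its air mean by 0.24, 0.50, 0.62 and 0.12 in SHS females, and by 0.29, 0.23 and 0.28 in SHS males 1 to 3 with SHS male 4 at -0.05. The part of proliferation in the differences of Uhrf1, Dnmt1 and Ezh2 was not tested.

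**Figure D4:**
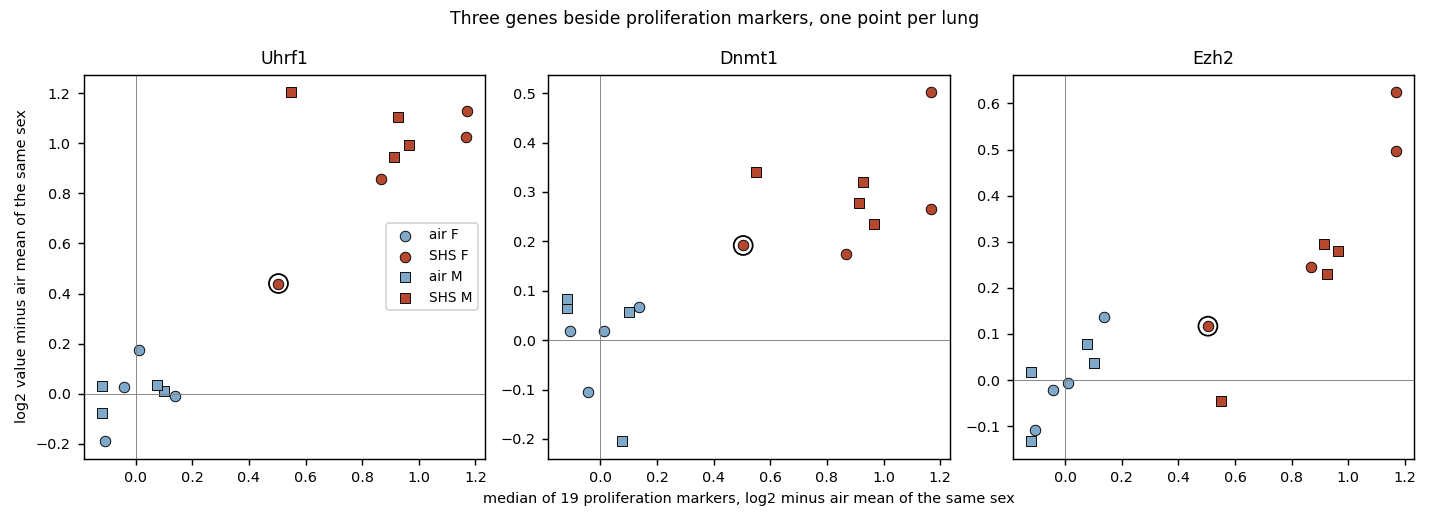
Log2 deviation of Uhrf1, Dnmt1 and Ezh2 from the air mean of the same sex (vertical axis) against the median deviation of the proliferation markers (horizontal axis), with 1 point per mouse, air in blue, SHS in red, circles for females, squares for males and a ring on SHS female 4. For Uhrf1 the SHS mice run from 0.44 to 1.21, above all air mice. SHS male 4 (markers 0.55, Uhrf1 1.21) lies above SHS female 4 (markers 0.50, Uhrf1 0.44), the mouse nearest to it in marker level.

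By the likeness of pattern over the 16 arrays, after the mean of each sex was subtracted, the genes closest to Uhrf1 were H2ax (Pearson r = 0.985, Spearman rho = 0.915), Tcf19 (0.976, 0.879) and Timp1 (0.972, 0.824). Those closest to Dnmt1 were Mcm3 (0.919, 0.927), Bzw2 (0.917, 0.891) and Park7 (0.912, 0.897). The arrays fall into air and SHS, so these coefficients carry the group difference and serve only as a ranking of 18193 genes. Timp1, which inhibits matrix metalloproteinases, rose by 2.13 ± 0.23 in females (limma adjusted p = 0.000187) and 2.43 ± 0.23 in males (limma adjusted p = 4.19e-05). Mcm3, a subunit of the replicative helicase, rose by 0.64 (limma adjusted p = 0.000488) and 0.54 (limma adjusted p = 0.0015).

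Few single markers of the lung's cell types were called. Alveolar epithelial markers, which identify lung, had a mean log2 level of 13.25 to 13.52 on all 16 arrays. Of the 11 marker lists other than proliferation, each had at most 1 gene called in either sex. Those genes were Cd53 of leukocytes (0.45, limma adjusted p = 0.0452) and Tek of endothelium (-0.46, limma adjusted p = 0.0356) in females, and Cxcr2 of neutrophils (0.59, limma adjusted p = 0.0161) and Abca3 of alveolar epithelium (-0.23, limma adjusted p = 0.0485) in males. The club cell gene Scgb3a2 fell in both sexes, by 0.84 (limma adjusted p = 0.00692) and 0.65 (limma adjusted p = 0.0251) on the log2 scale. With each array left out in turn, Cd53 was called in 2 of 16 fits, Abca3 in 4, Tek in 9, Cxcr2 in 15, and Scgb3a2 in 16 in females and 10 in males. The median differences in females and males were 0.28 and 0.10 for leukocyte markers, 0.20 and 0.02 for T cells, 0.30 and 0.01 for B and plasma cells, 0.20 and 0.02 for macrophages, 0.27 and 0.38 for neutrophils and -0.09 and -0.15 for eosinophils. They were 0.01 and -0.04 for alveolar epithelium, -0.31 and -0.00 for airway epithelium, -0.12 and 0.03 for endothelium, -0.04 and 0.07 for fibroblasts and -0.07 and 0.13 for heart and thymus. All 7 airway markers had a negative difference in females. Several of these medians are as large as the differences of Dnmt1, and single markers that were not called reached more, such as the eosinophil gene Epx (0.79 ± 0.42 in females, limma adjusted p = 0.377, and 0.94 ± 0.42 in males, limma adjusted p = 0.214) and the heart gene Myh6 in males (0.86 ± 0.37, limma adjusted p = 0.2). The part of these cell types in the members' differences was not tested.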

How the data were processed

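Total RNA was extracted with Trizol from 16 left lungs and hybridized as biotinylated cRNA, 4 arrays in each of 4 groups, per the labels' protocols. The authors deposited 1 log2 value per probe set and array, from 2.575 to 15.22, used here unchanged. The summarisation and normalization are not given in the sources used here. Per the submitters' processing notes, limma was used. Of 45101 features, 64 controls were left out. Symbols came from the platform annotation (34945 probe sets with 1 symbol, 932 with several, 9160 with none), and 34741 matched RefSeq genes of GRCm38.p6, which gave positions and promoters.

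The means of the 4 groups were fitted with limma 3.58.1 in R 4.3.3 (12 residual and 5.556 prior degrees of freedom), two-sided, with Benjamini-Hochberg adjustment over 45037 probe sets and calls at 0.05. Intervals are at 95%. The code was tested on simulated data. Named genes are the 10 members, from each pathway list up to 4 called genes of largest difference in a sex or else that of smallest p, and the 3 genes most like each called member. Members and lists were chosen with earlier results of these data known. Of 131 listed pathway genes 120 were measured, and 90 of 98 markers. Alternatives included filters, quantile normalization, array weights, a replicate block and leaving out each array. The 4 samples of a group are labelled biological replicates, 1 animal each.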

Additional observations from a re-analysis of the deposited data

Results flagged for a closer look

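In 8 of 96 groups of 4 mice checked (each probe set of the members in each group), the highest or lowest mouse was far from the others by Dixon's test at the 95% level, which by chance flags about 5% of groups. Air male 4 was the lowest of its group at Dnmt1 1422946_a_at, with 9.26 against 9.52 in the next mouse, and at Dnmt1 1435122_x_at, with 9.46 against 9.61. Air female 1 was the highest at Uhrf1 1415811_at, with 6.42 against 6.19, and at Dnmt3a 1423063_at, with 9.15 against 8.97. SHS male 4 was the lowest at Dnmt3a 1423064_at, with 7.66 against 7.78, and SHS male 3 at Tet2 1455300_at, with 9.48 against 9.58. SHS female 2 was the lowest at Hdac2 1445684_s_at, with 10.24 against 10.49, and at Hdac2 1439704_at, with 7.43 against 7.70.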

How the results depend on the processing

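The alternative that left out both SHS mice numbered 4 was chosen after seeing the data, and the others were planned. Uhrf1 was called in both sexes in every fit that left out 1 array. In females 1 member was called higher with all mice, 3 without dim probe sets, 4 with array weights, 3 with a trended robust prior, 3 at an adjusted p under 0.1, 3 with a gene's probe sets averaged and 4 without both SHS mice numbered 4, and 1 to 4 when 1 array was left out. Called lower were 0 with all mice, 1 with probe sets averaged, 1 without both SHS mice numbered 4, and 0 to 1 when 1 array was left out. In males 2 members were called higher, but 1 with the replicate block, 1 at 1.5-fold or more and 1 without both SHS mice numbered 4, and 1 to 2 when 1 array was left out. Called lower in males were 0, but 1 when males were fitted alone (Tet2), 1 with array weights (Sirt1), 2 with probe sets averaged (Tet1, Tet2), 1 without both SHS mice numbered 4 (Sirt1), and 0 to 1 when 1 array was left out. Of the pathway genes, 9 were called in females and 4 when females were fitted alone, 14 with array weights, 2 at 1.5-fold, 19 without both SHS mice numbered 4, and 4 to 16 when 1 array was left out. In males 10 were called, 2 at 1.5-fold, 16 with probe sets averaged and 4 to 10 when 1 array was left out. Calls over all probe sets moved with the settings too. In females they went from 1294 to 3985 with array weights and 3954 without both SHS mice numbered 4. In males they went from 2332 to 4398 and 3315. The adjustment was over 18193 genes with probe sets averaged and over 27022 probe sets without dim ones. The share of all genes called was not counted under every alternative, so a change in these member and pathway counts cannot be told from a general one. The difference between the sexes was called for 0 members and 0 probe sets under every alternative in which limma tested it. It was not tested where each sex was fitted alone. Among called differences the sign reversed for Nasp in females (-0.0195) and Zbtb38 in males (0.0144), both with the probe set of largest variance. The causes were not tested. Of 3684 comparisons with the main value, 3335 kept direction and side of the threshold, 168 lost and 126 gained a call in the same direction, 53 changed sign without a call on either side, and 2 are the reversals just named.

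Over all probe sets, calls ran from 366 (1.5-fold) to 3985 (array weights) in females and from 463 to 4398 in males. Of the female calls 82.0% were higher, and 70.6% after quantile normalization. Air and SHS mice of the same sex and number were compared for shared deviations. Over 8 such pairs r ran from -0.08 to 0.27, 2 were over 0.1, and 3 of 8 fitted best with their own number. SHS females were not compared with SHS males in this way, and the SHS mice numbered 4 of both sexes stood apart, as given above. With the replicate block, Dnmt1 in males had a difference of 0.29 and a limma adjusted p of 0.0589, Tet1 1455425_at in males was called (-0.54, limma adjusted p = 0.0468), and calls were 1537 in females and 2439 in males. With 4 mice a group the standard errors of the members' leading probe sets were 0.07 to 0.12, which limits what can be called.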
